A study of Rattus norvegicus with 7 samples.

Results

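The genes described here are 42 rat genes of the lysosome and of autophagy: cathepsins and other luminal enzymes, lysosomal membrane proteins, subunits of the vacuolar proton pump, the transcription factor Tfeb, and genes that build the autophagosome. A member was measured by every probe set whose sole gene symbol in the platform annotation is that gene, which gave 61 probe sets of 40 genes among 31042 probe sets that are not array controls. Probe sets in the upper 60% by mean log2 signal over all arrays were tested, 18625 in all, and 55 of the 61 passed, covering 38 genes. Ctsk and Ctsz, both cathepsins, had no probe set above that level, with signals of 11.9 to 83.8 and 5.23 to 36.2 over the 7 arrays. The 2 members without such a probe set were present only on probe sets that carry a second symbol and have no value here. Lamp1, Atg5, Atg7 and Sqstm1 each had a dim probe set left untested beside at least 1 that was tested.

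Lysosomes are acidic compartments in which hydrolases break down protein, lipid and carbohydrate. A membrane proton pump keeps the lumen acidic, and heavily glycosylated membrane proteins line it. Autophagy brings cytoplasm to the lysosome in a double membrane that grows with the help of ubiquitin-like conjugation, and TFEB is a transcription factor that drives many genes of both systems through a promoter element known as CLEAR. In the kidney tubule, epithelial cells take up filtered protein by endocytosis and degrade it in lysosomes.

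The cells were NRK-52E, an epithelial line established from normal rat kidney, with RNA from 7 cultures on 7 Affymetrix arrays. Cells in medium with 10% serum, seeded at 20% confluence, received siRNA duplexes at 100 pmol per ml in a lipid carrier and were harvested after 48 h. The groups were siRNA 3488 against Adamts16, a secreted metalloprotease (2 arrays), siRNA 2600 against the same transcript at another site (2 arrays), and a scrambled siRNA (3 arrays). The controls therefore also went through lipofection with a duplex, and untransfected cells were not analysed here. The design text calls the cultures independent, so p-values measure the spread between cultures of 1 line. The antisense strands are shown because the results below differ between the duplexes, with the seed, bases 2 to 8 from the 5′ end, in capitals and the overhang left out.
siRNA 3488: tTTCCGGAgacgtacttct
siRNA 2600: tTGCGCACagaaatatagg
Scrambled siRNA: aTTACCGAgcacattggagg
No seed was shared among the 3 strands.

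Facts of the whole series bear on these genes as follows. The Adamts16 probe set read 12.1 and 40.4 with siRNA 3488, and 21.4 and 2.42 with siRNA 2600, against 7.18 to 18.9 in the controls, a dim signal that did not separate the groups, so the labels could not be checked by it. Array medians lay between 126 and 139.6, and the ratio of the 3′ to the 5′ actin probe set was 1.94 to 1.96 with siRNA 3488, 1.81 to 1.83 with siRNA 2600 and 1.74 to 1.79 in the controls. The first siRNA 2600 array correlated more closely with 2 control arrays (0.985 and 0.984) than with its own replicate (0.980), over tested probe sets, and with the remaining control array at 0.980 as well. Of 10 measured epithelial markers, Krt8 and Tjp1 were bright, 4 were tested, and Cdh1, Epcam and Krt18 were near the bottom of the signal range. Their summed signal was 13328 to 13983 with siRNA 3488, 12446 to 12845 with siRNA 2600 and 12606 to 13531 in the controls. Fibroblast markers, 4 of 9 tested and led by Col3a1, summed to 28471 to 32401 with siRNA 3488, 22627 to 24247 with siRNA 2600 and 21987 to 22758 in the controls. Macrophage markers, 5 of 11 tested, summed to 6597 to 6925, 6726 to 6727 and 6307 to 6772, and most of that sum was Cd14, at 5688 to 6258 over the 7 arrays. The other tested macrophage markers were Cd68, Fcer1g, Aif1 and Lyz2, and the leukocyte and macrophage markers Ptprc, Adgre1 and Itgam were among the 6 left untested, at or below a signal of 33.9 on every array. Proximal tubule markers, 4 of 8 tested, summed to 1196 to 1363 with siRNA 3488, 1148 to 1264 with siRNA 2600 and 999.5 to 1179 in the controls. On both siRNA 3488 arrays the fibroblast sum and the actin ratio were above those of every other array and the proximal tubule sum was above that of every control, and their part in the results below was not tested. In cultures measured in bulk, fewer cells of a kind and less RNA per cell cannot be told apart.

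With siRNA 3488 and the deposited scaling, lysosomal members that were called were all higher than control and autophagy members that were called all lower. Under quantile normalisation, no lysosomal member was called higher. Genes of these pathways outside the member list were not split in this way. Autophagy and TFEB regulation genes gave 6 rises and 2 falls in 59 probe sets (13.6% called, against 15.6% of all tested probe sets). Hydrolases and luminal proteins outside the member list gave 9 and 4 in 40 (32.5%). Membrane and sorting genes gave 6 and 1 in 45 (15.6%), and proton pump genes 5 and 0 in 16 (31.2%). The shares of the autophagy and of the membrane and sorting genes were thus near that of all tested probe sets. Changes are mean log2 signals minus those of the scrambled control, ± SE, and a call is a Benjamini-Hochberg adjusted p under 0.05 in limma, adjusted over all 18625 tested probe sets. Of the 55 member probe sets, 9 rose and 3 fell, or 21.8%, against 15.6% of all tested probe sets (6.89% higher and 8.74% lower). All 9 rises were among the 29 lysosomal probe sets (31.0% of them), and all 3 falls among the 25 autophagy probe sets (12.0%). Groups did not overlap for 28 of the 55 (50.9%), 18 above and 10 below control, against 50.3% of all tested probe sets (19.2% above and 31.1% below), so this share was near the background. The median change as deposited was 0.10 for the lysosomal probe sets (-0.02 after quantile normalisation), -0.07 for the autophagy probe sets (0.03 after median centring) and -0.06 for all tested probe sets. The count of member calls was 2 without siRNA 3488 replicate 2, 5 without control replicate 1 and 6 without control replicate 2. Calls over all tested probe sets fell to 2.54%, 5.26% and 7.17% in the same fits.

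**Figure D1:**
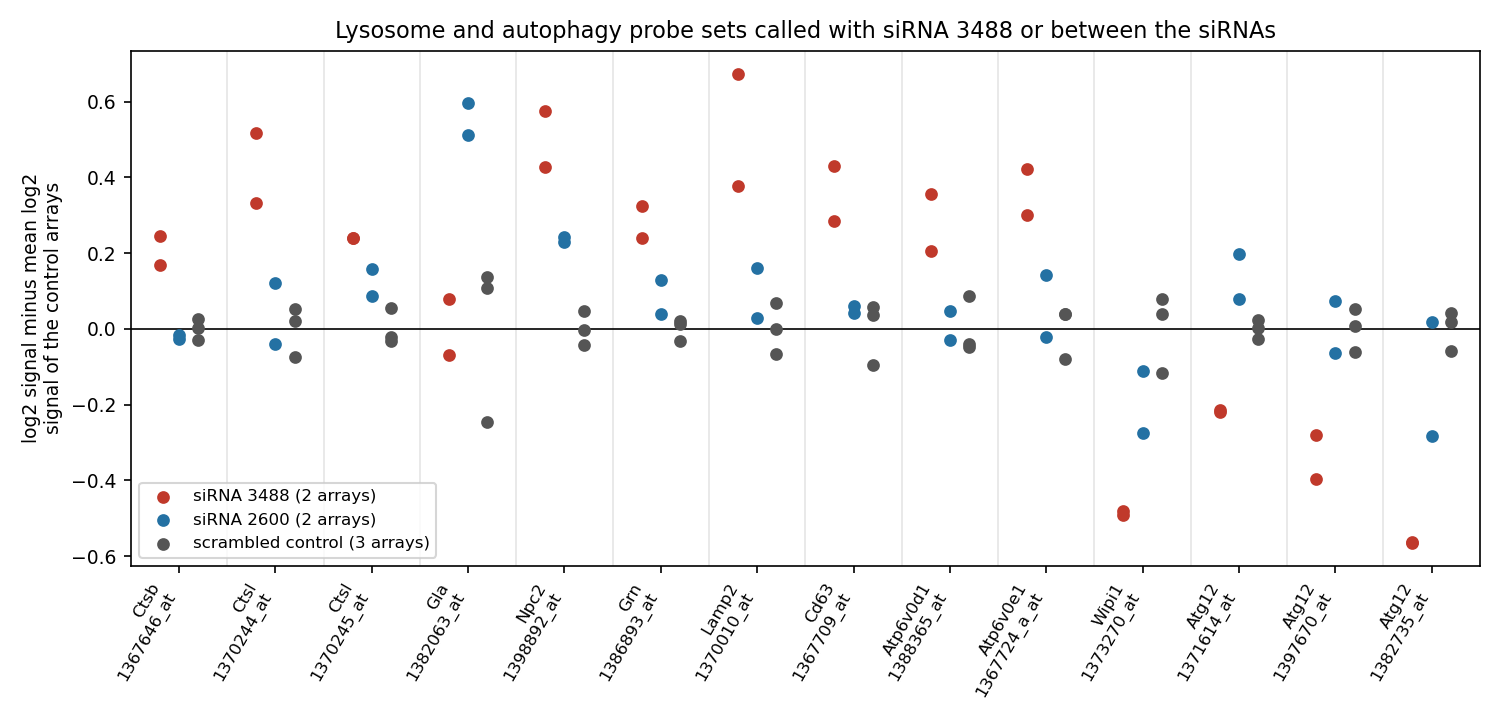
Log2 signal minus the mean of the 3 control arrays for 14 member probe sets called in a comparison, 1 point per array (red siRNA 3488, blue siRNA 2600, grey scrambled control), with the deposited scaling. Lamp2 and Npc2 showed the largest called rises with siRNA 3488 (0.52 and 0.50 on average), and Wipi1 and Atg12 on the siRNA 3488 arrays lay below the controls.

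The direction of the lysosomal calls went together with how bright these probe sets were. With siRNA 3488, the brightest 10% of tested probe sets (1863) had a median change of 0.15, and 37.4% of them were called higher. This range held 19 of the 29 lysosomal probe sets but 2 of the 25 autophagy probe sets. Each change was therefore set beside the median change of the 500 tested probe sets nearest in mean log2 signal, called the brightness-matched median here. It is printed below for only some of the members. For the brightest members that window reaches further down than up in signal, so the median of the 100 nearest is given too for the brightest called members. The lysosomal median of 0.10 stood beside a matched median of 0.09, and 15 of 29 probe sets lay above their own matched value. The autophagy median of -0.07 stood beside -0.08, with 11 of 25 above. In addition, 18 hybridisation control probe sets, which report labelled RNA added at hybridisation, had a median change of 0.52 with siRNA 3488 and 0.03 with siRNA 2600. Calls after scalings that remove such a trend are given after the genes.

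**Figure D2:**
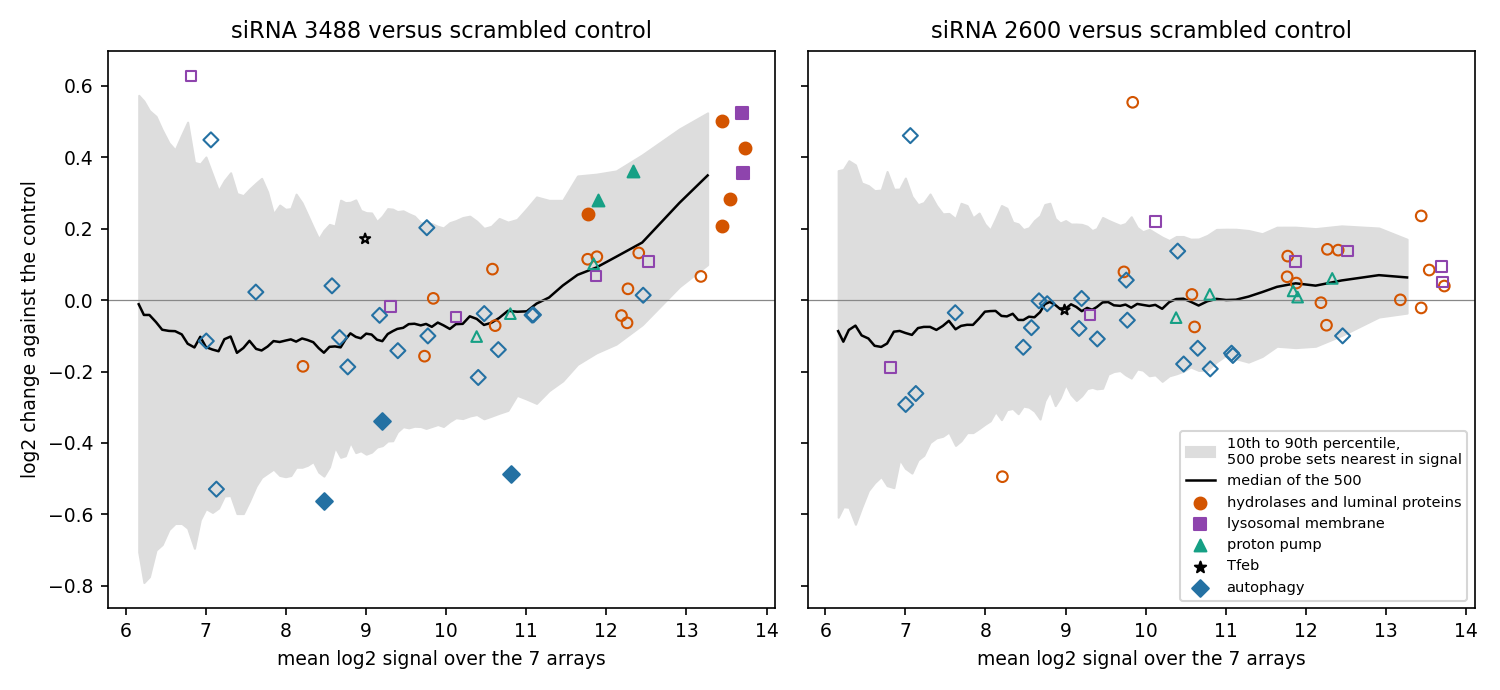
Log2 change from scrambled control against mean log2 signal over 7 arrays for the tested probe sets of members described here, in 1 panel per siRNA, with filled points for calls. The black line and grey band are the median and the 10th to 90th percentiles of the 500 tested probe sets nearest in signal, and with siRNA 3488 that median climbs to 0.35 where the brightest lysosomal probe sets lie.

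Tfeb was measured by 1 probe set (1373327_at). Its signal was 548 and 564 with siRNA 3488, and 437 and 536 with siRNA 2600, against 506, 475 and 499.5 in the controls. Both siRNA 3488 arrays were above every control array, and the siRNA 2600 arrays spanned the control values. The change was 0.17 ± 0.11 with siRNA 3488 (limma adjusted p = 0.314, 95% interval -0.07 to 0.41) and -0.03 with siRNA 2600 (adjusted p = 0.936), so neither passed the test. The matched medians were -0.11 with siRNA 3488 and -0.03 with siRNA 2600.

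Because TFEB binds the CLEAR element, promoters of the members were searched for its inner bases TCACGTGA and for the E-box CACGTG within it, on both strands. Both motifs read the same on either strand, and every TCACGTGA holds a CACGTG. RefSeq promoters of build GRCr8, from 250 bases before to 50 after a listed start of the gene, were found for 36 of the 42 members, and Atp6v1h, Becn1, Ctsb, Hexa and Psap were among the others. TCACGTGA occurred in 6 of the 36 genes (16.7%) and in 0.896% of all 27457 genes of the table (0.777% of its 33469 promoters). CACGTG occurred in 10 of the 36 (27.8%) and in 7.08% of all genes (6.42% of promoters). The 6 were Atg3, Atp6v0d1, Atp6v0e1, Ctsd, Lamp1 and Mcoln1. Windows of 4 of them are shown, with the motif in capitals, because this set contains the 2 motif genes that were called with siRNA 3488 and 2 that were not called.
Atp6v0d1, bases -80 to -1, chr19:50357249-50357328, minus strand: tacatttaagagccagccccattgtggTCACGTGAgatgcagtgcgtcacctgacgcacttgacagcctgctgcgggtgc
Atp6v0e1, bases 13 to 42, chr10:17007115-17007144, minus strand: tcgcgcgccggTCACGTGAgcctctgttga
Ctsd, bases -80 to -1, chr1:206968822-206968901, minus strand: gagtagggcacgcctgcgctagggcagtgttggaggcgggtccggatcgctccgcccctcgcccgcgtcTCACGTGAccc
Lamp1, bases -80 to -1, chr16:83075064-83075143, minus strand: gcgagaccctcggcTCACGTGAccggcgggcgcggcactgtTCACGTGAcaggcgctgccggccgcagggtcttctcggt
With siRNA 3488, 2 of the 6 genes with TCACGTGA rose and none fell, and their median change was 0.07 beside a matched median of 0.11. Of the 26 tested genes whose promoter lacked it, 5 were called higher and 1 lower, with a median of 0.08 beside -0.02. The listed starts of Lamp1 and Mcoln1 lie inside the gene spans of the same annotation, so their windows are not upstream of the outermost start. A match describes these letters in this window and not binding of the factor.

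Among luminal hydrolases, 3 of 14 probe sets (11 genes) were called with siRNA 3488, all higher, and they belonged to 2 cathepsins. This was 21.4%, against 15.6% of all tested probe sets, and 37.4% of the brightest 10% were called higher. The class median was 0.06 beside a matched median of 0.09. Ctsl, the cysteine protease cathepsin L, read 15605 and 17749 with siRNA 3488 on probe set 1370244_at, and 12047 and 13466 with siRNA 2600, against 11779, 12849 and 12577 in the controls. Both siRNA 3488 arrays lay above all 5 others, among which siRNA 2600 and control overlapped. The change was 0.43 ± 0.08 (limma adjusted p = 0.00833), beside a matched median of 0.35, or 0.40 over the 100 nearest probe sets. Without siRNA 3488 replicate 2 it was 0.33 and no longer called (adjusted p = 0.0649).

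A second Ctsl probe set, 1370245_at, read 3849.5 and 3852 with siRNA 3488, and 3463 and 3639.8 with siRNA 2600, against 3189, 3209 and 3384 in the controls. All 4 siRNA arrays were above the controls, and siRNA 3488 was the highest. Its change with siRNA 3488 was 0.24 ± 0.06 (adjusted p = 0.0256), above a matched median of 0.08. This call held in 1 of 5 fits that left out an array (without control replicate 3, 0.27, adjusted p = 0.0465), and in the others the adjusted p reached 0.111.

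Ctsb, the cysteine protease cathepsin B (1367646_at), read 12044 and 12711 with siRNA 3488, and 10522 and 10601 with siRNA 2600, against 10514, 10743 and 10917 in the controls. The siRNA 3488 arrays stood above the rest, and the siRNA 2600 arrays lay within the lower part of the control range. The change was 0.21 ± 0.06 (adjusted p = 0.0371), below the matched median of 0.35, or 0.34 over the 100 nearest. It stayed a call only without siRNA 3488 replicate 1 (adjusted p = 0.0322), and with any other array of this comparison left out the change was 0.17 to 0.22 with an adjusted p of 0.0862 to 0.155. Ctsb, like Cd63 and Grn, turned sign under another scaling, as given below.

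Other hydrolases did not pass the test with siRNA 3488 under the deposited scaling. Ctsd, the aspartic protease cathepsin D (1367651_at), read 5103 and 4661 with siRNA 3488, and 5402 and 5133 with siRNA 2600, against 4385, 4801 and 5159 in the controls, so the 3 groups overlapped. Its change was 0.03 (adjusted p = 0.817, 95% interval -0.14 to 0.21). Hexa, the alpha subunit of beta-hexosaminidase, had a change of -0.06 where equally bright probe sets had a median of 0.13. On their brightest probe sets, the enzymes Ctsa, Gaa, Lipa and Tpp1 had changes of 0.09 to 0.13, Glb1, the lysosomal beta-galactosidase, -0.04, Gla, alpha-galactosidase A, 0.01, and Ctsh, a cysteine protease, -0.19. A second Gaa probe set, 1378239_at, read 1498 and 1568 with siRNA 3488, against 1535, 1618 and 1683 in the controls. The second of Gla, 1373199_at, read 720 and 830 against 908, 819 and 862. Both overlapped with control and were not called.

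The other luminal proteins gave 2 calls among 3 genes (66.7%, against 15.6% of all tested probe sets). Of these, Npc2, which hands cholesterol to the membrane transporter NPC1, held its call best. Npc2 (1398892_at) read 12926 and 14327 with siRNA 3488, and 11267 and 11370.1 with siRNA 2600, against 9324, 9925 and 9595 in the controls. The groups did not overlap and stood in the order siRNA 3488, siRNA 2600, control. Group means were 13627 ± 991 (SD, n = 2), 11318 ± 73.1 (SD, n = 2) and 9615 ± 301 (SD, n = 3). The change with siRNA 3488 was 0.50 ± 0.06, or 1.42-fold (limma adjusted p = 0.00287), beside a matched median of 0.35, or 0.33 over the 100 nearest. It remained called with any 1 array of this comparison left out, at 0.43 to 0.58 and an adjusted p of at most 0.0224.

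Grn, which encodes the granulin precursor progranulin (1386893_at), read 13096 and 13889 with siRNA 3488, and 12126 and 11394 with siRNA 2600, against 10843, 11185 and 11240.3 in the controls. Here too all siRNA arrays were above the controls. The change of 0.28 ± 0.06 (adjusted p = 0.0142) was below the matched median of 0.35, or 0.37 over the 100 nearest. The call was lost without siRNA 3488 replicate 2 (0.24, adjusted p = 0.0826), control replicate 1 (0.27, 0.0612) or control replicate 2 (0.29, 0.0531). Psap, the saposin precursor that serves sphingolipid breakdown, read 9234 and 9970.4, 9117 and 9220.1, and 8689, 9314 and 9508 in the same order of groups. Its groups overlapped, and its change was 0.07 (adjusted p = 0.517) where equally bright probe sets had a median of 0.33.

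Among lysosomal membrane proteins, 2 of 7 probe sets (5 genes) were called with siRNA 3488, both higher (28.6%, against 15.6% of all tested probe sets). The class median was 0.11 beside a matched 0.09. Lamp2, a glycoprotein of the lysosomal membrane that also takes part in autophagosome fusion, read 15261 and 18738 with siRNA 3488 on probe set 1370010_at, and 11989 and 13137 with siRNA 2600, against 11219.8, 12331 and 11749 in the controls. Both siRNA 3488 arrays were above all others, and siRNA 2600 overlapped with control. Means were 16999.5 ± 2458 (SD, n = 2), 12563 ± 812 (SD, n = 2) and 11767 ± 556 (SD, n = 3). The change was 0.52 ± 0.09, or 1.44-fold (limma adjusted p = 0.00685), beside a matched median of 0.35, or 0.39 over the 100 nearest. It was called with any 1 array of this comparison left out, at 0.38 to 0.67 and an adjusted p of at most 0.0458. The call was lost in a fit without an intensity trend.

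The second Lamp2 probe set disagreed in size. Probe set 1383080_at read 3788 and 3787 with siRNA 3488, and 3875 and 3919 with siRNA 2600, against 3600.3, 3520.1 and 3729 in the controls. All siRNA arrays were above control, but the change with siRNA 3488 was 0.07 (adjusted p = 0.461). The annotation used does not say which Lamp2 transcripts each probe set reads.

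Cd63, a tetraspanin of late endosomes and lysosomes, read 15023 and 16587 with siRNA 3488, and 12686 and 12844 with siRNA 2600, against 11544, 12826 and 12642 in the controls. Only the siRNA 3488 arrays stood clear of control. The change was 0.36 ± 0.07 (adjusted p = 0.0106), beside a matched median of 0.35, or 0.40 over the 100 nearest, and it was lost without siRNA 3488 replicate 2 (0.29, adjusted p = 0.0743). Lamp1, the other abundant LAMP glycoprotein (1368504_at), read 6109.7 and 5971 with siRNA 3488, and 6395 and 5948 with siRNA 2600, against 5543, 5837 and 5448 in the controls. All 4 siRNA arrays exceeded the controls, with siRNA 3488 and siRNA 2600 changes of 0.11 (adjusted p = 0.266, 95% interval -0.03 to 0.25) and 0.14 (adjusted p = 0.330). A dimmer Lamp1 probe set, 1375629_at, had a change of 0.63 ± 0.55 with siRNA 3488 that was not called. Scarb2, the receptor that carries beta-glucocerebrosidase to lysosomes, had a change of -0.05 with siRNA 3488, and Mcoln1, a lysosomal calcium channel, -0.02.

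The proton pump gave 2 calls among 5 probe sets of 4 genes (40%, against 15.6% of all tested probe sets), both in the membrane-embedded V0 sector and both higher. Atp6v0e1, a small V0 subunit (1367724_a_at), read 5830.2 and 6345 with siRNA 3488, and 4668 and 5231 with siRNA 2600, against 4484, 4870.5 and 4870.2 in the controls. The siRNA 3488 arrays were above all others. Its change was 0.36 ± 0.07 (limma adjusted p = 0.0119) beside a matched median of 0.14, and it was lost without siRNA 3488 replicate 2 (0.30, adjusted p = 0.0947) or control replicate 1 (0.32, 0.0539).

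Atp6v0d1, the subunit d of the V0 sector, read 4616 and 4155 with siRNA 3488, and 3721 and 3533 with siRNA 2600, against 3504, 3488 and 3831 in the controls. Again only the siRNA 3488 arrays stood above control. The change was 0.28 ± 0.07 (adjusted p = 0.0270) beside a matched median of 0.09. It held only without control replicate 3 (adjusted p = 0.0366), and with other arrays left out it was 0.21 to 0.36 with an adjusted p of up to 0.130. The V1 sector, which hydrolyses ATP, gave no call: Atp6v1a had a change of 0.10 and Atp6v1h of -0.10.

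**Figure D3:**
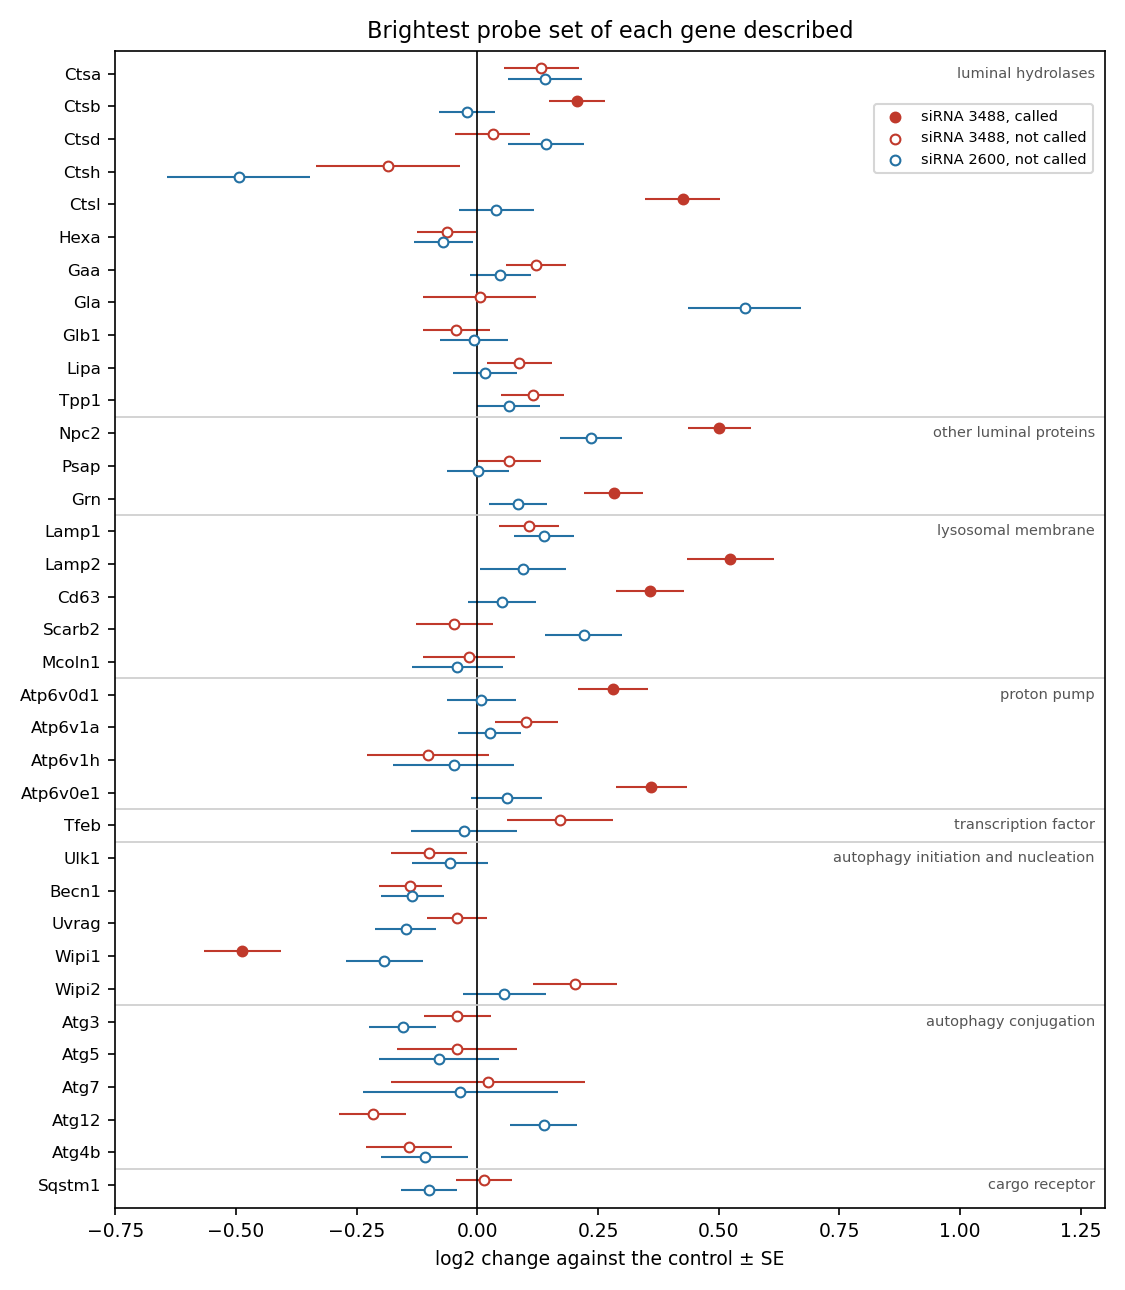
Log2 change from scrambled control, ± SE, for the brightest probe set of 35 of the 38 tested members, grouped by class (red siRNA 3488, filled where called, and blue siRNA 2600, open since none was called). With siRNA 3488 and the deposited scaling, the 8 genes called higher are lysosomal and the 1 called lower is Wipi1, whereas under quantile normalisation none is called higher.

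The autophagy genes gave no rise with siRNA 3488 and 3 falls, of 1 initiation gene and 1 conjugation gene. Initiation and nucleation genes gave 1 call in 7 probe sets (14.3%, against 15.6% of all tested probe sets). Wipi1, which binds phosphoinositide on the growing membrane (1373270_at), read 1467 and 1458 with siRNA 3488, and 1695 and 1898 with siRNA 2600, against 1889, 2107 and 2163 in the controls. The siRNA 3488 arrays were below all others, and siRNA 2600 overlapped with control. Means were 1463 ± 6.60 (SD, n = 2), 1796 ± 144 (SD, n = 2) and 2053 ± 145 (SD, n = 3). It fell by 0.49 ± 0.08 on the log2 scale (limma adjusted p = 0.00611), beside a matched median of -0.03, and without siRNA 3488 replicate 2 the change was -0.48 with an adjusted p of 0.0516. The call was also lost in a fit without an intensity trend. A dimmer Wipi1 probe set, 1374021_at, read 98.6 to 152 over the 7 arrays and was not called (adjusted p = 0.764).

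Related initiation genes did not pass. Wipi2, of the same family, had both siRNA 3488 arrays above control, 877 and 1022 against 803, 819 and 847, and a change of 0.20 (adjusted p = 0.138). Becn1, the scaffold of the phosphatidylinositol 3-kinase complex, read 1533 and 1551 with siRNA 3488, and 1555 and 1537 with siRNA 2600, against 1682, 1760.2 and 1653 in the controls. All 4 siRNA arrays were below control, with changes of -0.14 (adjusted p = 0.171) and of similar size with siRNA 2600 (adjusted p = 0.363). Ulk1, the kinase that starts autophagy, had a change of -0.10, and Uvrag, a further subunit of the Becn1 complex, of -0.04.

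Conjugation genes gave 2 calls in 10 probe sets (20%, against 15.6% of all tested probe sets), both of Atg12, the ubiquitin-like protein that is joined to Atg5. The class median was -0.16, beside a matched median of -0.11. On probe set 1382735_at Atg12 read 276 and 276 with siRNA 3488, and 335 and 413 with siRNA 2600, against 391, 413 and 419 in the controls. The siRNA 3488 arrays were lowest. It fell by 0.56 ± 0.12 on the log2 scale (limma adjusted p = 0.0151), beside a matched -0.14. This call was lost without siRNA 3488 replicate 2 (adjusted p = 0.0868), control replicate 1 (0.0504) or control replicate 2 (0.0560).

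A further Atg12 probe set, 1397670_at, read 477 and 518 with siRNA 3488, and 602 and 661 with siRNA 2600, against 632, 652 and 603 in the controls. It fell by 0.34 ± 0.09 (adjusted p = 0.0368) with siRNA 3488, and lost its call whichever array was left out, at -0.28 to -0.40. The brightest, 1371614_at, read 1179 and 1184, 1573 and 1449, and 1396, 1347 and 1376 in the same order of groups. All 3 Atg12 probe sets thus had both siRNA 3488 arrays below the other groups, and the change of the brightest, -0.22 ± 0.07, missed the threshold (adjusted p = 0.0598). Atg5, the partner of Atg12, and Atg3 and Atg7, enzymes of the conjugation, had changes of -0.04, -0.04 and 0.02 on their brightest probe sets, and Atg4b, a protease of the same pathway, of -0.14. A dimmer tested Atg7 probe set, 1374128_at, read 160 and 80.5 with siRNA 3488, and 138 and 135 with siRNA 2600, against 155, 152 and 187 in the controls. Its siRNA 3488 replicates lay far apart, and it was not called as deposited.

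Sqstm1 (p62), a receptor that brings ubiquitinated cargo to the autophagosome, was not called with siRNA 3488 on any probe set under the deposited scaling. Its brightest probe set, 1371353_at, read 5613 and 5963 with siRNA 3488, and 5310.1 and 5384 with siRNA 2600, against 5658, 5861 and 5677 in the controls. The siRNA 3488 arrays spanned the controls and the siRNA 2600 arrays lay below them. The changes were 0.01 (adjusted p = 0.900, 95% interval -0.12 to 0.14) and -0.10 (adjusted p = 0.454). A dim Sqstm1 probe set, 1371221_at, had all 4 siRNA arrays above control, at 134 to 173 against 98.9 to 126, with changes of 0.45 and 0.46 that were not called.

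Which members were called with siRNA 3488 depended on the scaling of the arrays. The deposited scaling gave 9 rises and 3 falls among the members, centring on the array median 9 and 2, cyclic loess, which removes changes that follow signal, 3 and 4, and quantile normalisation 0 and 7. The lysosomal median was 0.10 as deposited, 0.20 after centring, 0.01 after loess and -0.02 after quantile normalisation, so its direction turned under the last. The autophagy median was -0.07, 0.03, -0.04 and -0.05 in that order and turned after centring. The median of all tested probe sets was -0.06, 0.03, -0.01 and -0.02. Over all tested probe sets the split of calls was 1283 higher and 1628 lower as deposited and 1728 and 576 after centring.

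Under cyclic loess the rises of Npc2 (0.25, adjusted p = 0.00849), Lamp2 (0.24, 0.0279) and Atp6v0e1 (0.22, 0.0472) were called, and under quantile normalisation their changes were 0.13, 0.12 and 0.19 with adjusted p-values of 0.0740, 0.0951 and 0.0620. Wipi1 and the Atg12 probe set 1382735_at were called lower under all 4 scalings, with Wipi1 at -0.49, -0.39, -0.49 and -0.46 as deposited and after centring, loess and quantile normalisation. The lower calls that loess added were Hexa (-0.20) and Psap (-0.16), and quantile normalisation called these at -0.21 and -0.24 along with Sqstm1 (-0.18) and Ctsb (-0.15) among others. Ctsb was therefore called higher as deposited and lower after quantile normalisation, while under loess it was at -0.05 and not called. Cd63 and Grn were at -0.03 and -0.09 after quantile normalisation, Cd63 at 0.08 and Grn at 0.02 after loess, none of them called. Ctsl (1370244_at) was at 0.02 after quantile normalisation and 0.14 after loess, and Atp6v0d1 at 0.16 and 0.18, with no call in either. The second Ctsl probe set lost its call under both as well, at 0.14 and 0.15.

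**Figure D4:**
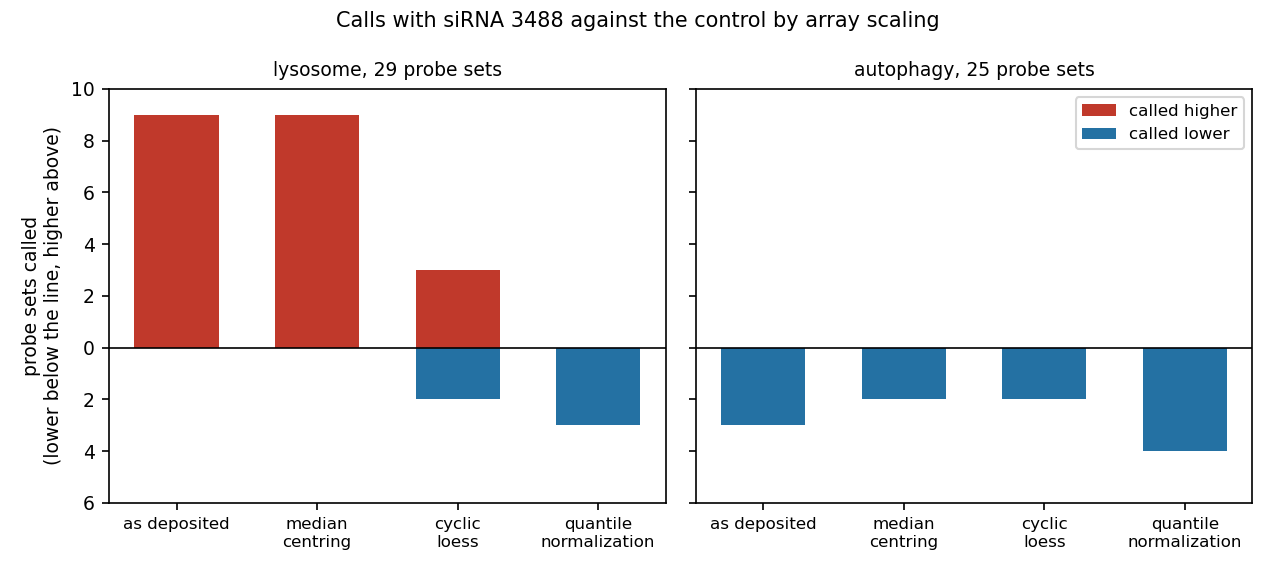
Number of member probe sets called higher (above 0) and lower (below 0) with siRNA 3488 among 29 lysosomal and 25 autophagy probe sets under each of 4 scalings. The 9 lysosomal rises became 3 rises and 2 falls under cyclic loess and 0 rises and 3 falls under quantile normalisation, while autophagy calls were all falls throughout.

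With siRNA 2600, none of the 55 member probe sets passed the limma test, against 1.03% of all tested probe sets (0.548% higher and 0.483% lower), and 9 had an unadjusted p under 0.05. Groups did not overlap for 21 of the 55 (38.2%), 12 above and 9 below control, against 34% of all tested probe sets (14.4% above and 19.6% below). The lysosomal median was 0.05, the same as its matched median, and the autophagy median -0.08 beside -0.02. This comparison uses the same 3 control arrays as that of siRNA 3488, so values are given side by side and no agreement is read from them. Npc2 had a change of 0.24 ± 0.06 with siRNA 2600 (adjusted p = 0.123), beside a matched 0.06, and 0.50 with siRNA 3488. Ctsl, Lamp2, Cd63, Atp6v0d1 and Atp6v0e1 had changes of 0.01 to 0.09 with siRNA 2600 on the probe sets named first above, and of 0.28 to 0.52 with siRNA 3488. Wipi1 was at -0.19 (adjusted p = 0.291) with siRNA 2600.

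The largest member change with siRNA 2600 was in Gla, the lysosomal alpha-galactosidase A. Its probe set 1382063_at read 866 and 781 with siRNA 3488, and 1168 and 1240.2 with siRNA 2600, against 902, 884 and 691 in the controls. Both siRNA 2600 arrays were above all others. The change of 0.55 ± 0.12 missed the threshold as deposited (adjusted p = 0.0581) and passed after quantile normalisation (0.57, 0.0492), after median centring (0.64, 0.0250) and with 1 probe set per gene (0.55, 0.0344). A second Gla probe set, 1373199_at, read 868 and 956 with siRNA 2600 and 819 to 908 in the controls, a change of 0.08. Ctsh, the cathepsin H aminopeptidase, read 262 and 221 with siRNA 2600, and 327 and 272 with siRNA 3488, against 316, 324 and 381 in the controls. Its siRNA 2600 arrays were the lowest, and the change of -0.49 ± 0.15 was not called (adjusted p = 0.150).

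When the 4 siRNA arrays were set against the 3 controls as a single group, none of the 55 probe sets was called, against 0.145% of all tested probe sets (0.102% higher and 0.043% lower), and 8 had an unadjusted p under 0.05 in limma. The arrays did not overlap for 9 probe sets (16.4%), 7 higher and 2 lower, against 17.7% of all tested probe sets (6.66% higher and 11% lower). The 7 were of Npc2, Grn, Lamp1, Lamp2 (1383080_at), Ctsl (1370245_at), Wipi2 and Sqstm1 (1371221_at), and Becn1 was among the 2. Npc2 had a change of 0.37 ± 0.10 (adjusted p = 0.126), with all siRNA arrays at 11267 or above and all controls at 9925 or below. Without siRNA 2600 replicate 1 it was called at 0.42 (adjusted p = 0.0307), in a fit that called 7% of all tested probe sets. When the mean of both siRNA effects was taken from the fit of 3 groups, where the difference between the siRNAs does not enter the spread, Npc2 (0.37, adjusted p = 0.00886), Lamp2 (0.31, 0.0388) and Wipi1 (-0.34, 0.0217) were called, with 7.4% of all tested probe sets called there.

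The siRNAs were also tested against each other, and 6 of the 55 probe sets differed, 4 higher and 2 lower with siRNA 3488 (10.9%, against 6.01% of all tested probe sets, 2.84% higher and 3.17% lower). Arrays of the siRNAs did not overlap for 32 of 55 (58.2%), 22 higher and 10 lower with siRNA 3488, against 49.6% of all tested probe sets (21.9% and 27.7%). Lysosomal probe sets higher with siRNA 3488 were those of Lamp2 (0.43 ± 0.10, limma adjusted p = 0.0354), Ctsl (0.39 ± 0.09, 0.0330) and Cd63 (0.31 ± 0.08, 0.0451), on the probe sets and signals given above. Under quantile normalisation these differences were 0.08, 0.06 and -0.02, and none was called there, under cyclic loess, with no filter, without an intensity trend or with the arrays of both groups alone. Their matched medians were 0.27 each, or 0.33, 0.35 and 0.34 over the 100 nearest. Npc2 (0.27, adjusted p = 0.0538), Atp6v0e1 (0.30, 0.0561) and Atp6v0d1 (0.27, 0.0701) missed the threshold. Gla was lower with siRNA 3488 by 0.55 ± 0.13 on the log2 scale (adjusted p = 0.0374), and lost the call in each of 4 fits that left out an array, after quantile normalisation (-0.51) and after loess (-0.49).

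Of the autophagy genes, Atg12 differed on its brightest probe set, 1371614_at, by -0.35 ± 0.08 (limma adjusted p = 0.0301), with siRNA 3488 below control and siRNA 2600 above it on every array. Of the fits that left out an array, it stayed called only without siRNA 2600 replicate 2 (-0.41). The call was kept after quantile normalisation and loess, and lost after median centring, without an intensity trend and with the arrays of both groups alone. No member differed between the siRNAs without siRNA 3488 replicate 2 or without siRNA 2600 replicate 1.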

How the data were processed

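Each of 7 NRK-52E cultures gave 1 Affymetrix array. Deposited were intensity values on a linear scale, 1 per probe set. Per the submitters' processing notes they come from GCOS 1.4, whose background, summary and scaling settings the sources used here do not state. The mean without the lowest and highest 2% of probe sets was 500.1 to 500.2 on every array, so arrays were already scaled. No column was unused. Groups came from the sample titles.

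Signals under 1 were set to 1, log2 was taken, 57 control probe sets were left out, and probe sets above a mean log2 signal of 6.09 were tested in limma (version 3.58.1, under R 4.3.3) by a linear model whose moderated spread followed the intensity trend. P-values were adjusted by Benjamini-Hochberg, with calls at 0.05. Single siRNAs and their difference used a fit of 3 groups, and the pooled siRNAs a fit of 2. Of the non-control probe sets 20826 had 1 symbol, 436 several and 9780 none, and genes were named from the first kind only. The scripts were tested on simulated data. The number of arrays limits the precision.

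The rule for named genes gave array values for members with a call in any comparison and for Tfeb, Lamp1, Ctsd and Sqstm1, and, of the other pathway genes, named the 3 largest called rises and falls per comparison. Some members are counted but not reported here by name. The further members given with values were chosen after their values were seen. Members and lists were chosen with earlier results of these data known. Alternatives were quantile normalisation, median centring, cyclic loess, no filter, the upper 40%, log2(signal + 32), no intensity trend, a replicate block, other sets of arrays, 1 probe set per gene and each array left out. The window of 100 nearest probe sets was added after seeing the data.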

Additional observations from a re-analysis of the deposited data

Results flagged for a closer look

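The change from control differed between the siRNAs for these member probe sets, by the limma test of siRNA 3488 against siRNA 2600. Higher with siRNA 3488 were Lamp2, a lysosomal membrane glycoprotein, by 0.43 on the log2 scale (adjusted p = 0.0354), Ctsl, a cysteine cathepsin, by 0.39 (0.0330), and Cd63, a lysosomal tetraspanin, by 0.31 (0.0451). Under quantile normalisation these 3 differences were 0.08, 0.06 and -0.02, with no call, and none was called under cyclic loess. Lower with siRNA 3488 were Gla, alpha-galactosidase A, at -0.55 (adjusted p = 0.0374, and not called after quantile normalisation, -0.51, or loess, -0.49), and the Atg12 probe set 1371614_at at -0.35 (0.0301). The Atg12 difference stayed called after quantile normalisation and loess. It lost the call after median centring, without an intensity trend and with the arrays of both groups alone. No group had the 4 arrays needed to look for a single array far from its group.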

How the results depend on the processing

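With siRNA 3488 the member calls numbered 12 as deposited, 7 after quantile normalisation, 7 after cyclic loess and 2 without an intensity trend, where 15.6%, 9.87%, 10.5% and 3.17% of all tested probe sets were called. Leaving out 1 array gave 2 to 10, with 2 (Lamp2 and Npc2) without siRNA 3488 replicate 2, 5 without control replicate 1 and 6 without control replicate 2. With siRNA 2600 there were 0, and 1 (Gla) after quantile normalisation, after median centring and with 1 probe set per gene, and 0 to 0 with an array left out. Centring also moved the split over all tested probe sets from 102 higher and 90 lower to 160 and 45 with siRNA 2600, and from 19 and 8 to 62 and 4 for the pooled siRNAs. The pooled siRNAs gave 0, 3 for the mean of both effects, and 0 to 1 with an array left out. Between the siRNAs the 6 calls became 2 after quantile normalisation, 2 after loess, 1 with no filter, 0 without an intensity trend, 0 with the arrays of both groups alone, 10 with 1 probe set per gene, and 0 to 6 with an array left out. Changes that reversed were, with siRNA 3488, Ctsb at -0.15 (quantile) and -0.047 (loess), Cd63 at -0.031 and Grn at -0.088 (quantile), and, between the siRNAs, Cd63 at -0.020 (quantile). Of the 18 member results with a call, all 18 kept it with log2(signal + 32) and with the upper 40%, 15 after median centring, and 2 without an intensity trend. Those 2 were Npc2 and the Atg12 probe set 1382735_at, both with siRNA 3488, while Lamp2 and Wipi1 lost their calls there. With replicate number as a block the counts were 12, 0, 0 and 10, against 12, 0, 0 and 6. Between the siRNAs the block fit called 8.38% of all tested probe sets, against 6.01% without the block. Deviations of same-numbered arrays correlated at -0.05 to 0.16. The deviations of 2 arrays mirror each other, so these values can neither show nor exclude a pairing by number. With 2 arrays per siRNA, differences of about the SE given are not resolved. Some changes well above their SE were not called either, such as those of Gla and Npc2 with siRNA 2600.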

Other observations

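Other genes of the same pathways were counted from a list of 152 genes, of which 121 were tested on 160 probe sets. With siRNA 3488, 26 of the 160 rose and 7 fell (20.6%, against 15.6% of all tested probe sets), with a median of 0.00 beside a matched -0.07. Hydrolases and luminal proteins gave 9 rises and 4 falls in 40 probe sets (32.5%), and membrane and sorting genes 6 and 1 in 45 (15.6%). Proton pump genes gave 5 and 0 in 16 (31.2%), and autophagy and TFEB regulation genes 6 and 2 in 59 (13.6%). The pump genes that rose were Atp6v1d (0.40), Atp6v1g1 (0.38), Atp6v0c (0.34), Atp6v1f (0.31) and Atp6ap1 (0.22), from both sectors and an accessory subunit. Their matched medians were 0.20, -0.03, 0.21, 0.10 and 0.10 in that order. Calls of these other genes rest on the deposited scaling and were not examined under other scalings or with an array left out.

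Gnptab, which makes the mannose 6-phosphate tag of lysosomal enzymes, read 1136 and 1311 with siRNA 3488, and 317 and 925 with siRNA 2600, against 390, 363 and 685 in the controls. The siRNA 3488 arrays were highest, and the replicates within the other groups lay far apart. Its change was 1.41 ± 0.38 (limma adjusted p = 0.0339). Rheb, the GTPase that activates mTORC1, read 320 and 327 with siRNA 3488, and 102 and 287 with siRNA 2600, against 125, 111 and 185 in the controls. Here too the siRNA 3488 arrays were highest and the siRNA 2600 replicates lay far apart. Rheb rose by 1.24 ± 0.37 (adjusted p = 0.0474). Cd68, a membrane glycoprotein of lysosomes that is also used as a macrophage marker, read 365 and 363 with siRNA 3488, and 192 and 225 with siRNA 2600, against 208, 236 and 246 in the controls. It rose by 0.67 ± 0.14 (adjusted p = 0.0141). The whole macrophage list, 5 of 11 tested, summed to 6597 to 6925 with siRNA 3488, 6726 to 6727 with siRNA 2600 and 6307 to 6772 in the controls, with Cd14 at 5688 to 6258 and Ptprc, Adgre1 and Itgam at or below 33.9 over the 7 arrays, and its part in the Cd68 result was not tested. The largest falls were those of Man2b1, lysosomal alpha-mannosidase (-0.72 ± 0.21, adjusted p = 0.0462), Sumf1, which activates sulfatases (-0.58 ± 0.08, 0.00366), and Vps41, a subunit of the HOPS tether (-0.51 ± 0.10, 0.0102).

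With siRNA 2600, 2 of the 160 fell and none rose (1.25%, against 1.03%). Atp6ap2, the proton pump accessory subunit also known as the prorenin receptor, read 1254 and 1198 with siRNA 3488, and 826 and 885 with siRNA 2600, against 1299.8, 1183 and 1239 in the controls. The siRNA 2600 arrays were well below all others, and the change was -0.54 ± 0.08 (limma adjusted p = 0.0142). Ids, iduronate 2-sulfatase, changed by -0.29 ± 0.06 (adjusted p = 0.0496). The pooled siRNAs gave no call among the 160. Between the siRNAs, 6 were higher and 5 lower with siRNA 3488 (6.88%, against 6.01%), the largest being Cd68 (0.81), Atp6ap2 (0.52) and Atp6v0c (0.39), and Man2b1 (-0.94), Vps33a, of the HOPS tether (-0.85), and Sort1, a sorting receptor (-0.50).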
